A study of Mus musculus with 2 samples.

Results

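The genes described here are 9 transcripts of late neutrophil maturation, Mmp8, Mmp9, Mmp25, Adam8, Retnlg, Asprv1, Wfdc17, Prok2 and Dhrs9. They were taken by symbol from the 32286 features of 2 single-cell matrices, and all 9 were found. Their levels were followed through the neutrophil stages and the other cell classes of mouse bone marrow. Each library is a single sample of hematopoietic bone marrow cells prepared with a droplet-based kit that reads transcript 3′ ends. The control library has the genotype Mx1Cre+/-;Rosa26+/+. The other, called the MYC library, has the genotype Mx1Cre+/-;Rosa26LSL-MYC/LSL-MYC. Mx1-Cre, carried by both, is a Cre recombinase under an interferon-inducible promoter that is active in many cell types besides blood stem cells. In LSL-MYC a stop cassette, which Cre cuts out, precedes the transgene. The labels give no age, no number of animals and no agent that induced the Cre, and the question of the series was what MYC overexpression in blood stem cells does to gene expression in the marrow.

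Neutrophils fill their granules in waves as they mature. Azurophil proteins such as elastase are made by progenitors, specific granule proteins such as lactoferrin follow, and gelatinase granules, which carry the gelatinase Mmp9 and are released more readily than the earlier granules, are formed last before the cell leaves the marrow. Transcripts of secreted proteins, receptors and vesicle proteins mark the latest marrow neutrophils.

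The libraries held 131884603 unique molecular identifiers (UMIs, counted transcript molecules) in 17073 control barcodes and 110012176 UMIs in 14496 barcodes of the MYC library, of which 14760 and 12645 cells were kept. Of the barcode sequences 97 occurred in both libraries, and 77 were kept in both. The MYC feature was counted 0 times in the neutrophil stages of the control and 94 times in immature and 104 times in mature neutrophils of the MYC library. With 1 library per group no difference was tested. Every interval is a 95% interval for counting error only, and genotype cannot be told apart from animal or library preparation.

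The neutrophil lineage held 6694 control cells and 5850 cells of the MYC library in 8 clusters, which were named from marker genes that include none of the 9. The clusters are called N1 to N8. N1 is the granulocyte progenitor cluster, led by Elane, and the others follow by the summed level of 10 mature neutrophil markers, which gave the same order in both libraries. N2 and N3 were the cycling immature clusters, with Mki67 at 1509 and 1154 UMIs per 1000000 UMIs (CPM) in the control. N4 was led by Ltf and Ly6g among its genes, and N5 by Thbs1 and Fpr1. Of the types scored, N5 fitted the immature neutrophils best and had all 9 of their markers detected. Its score of 1.48 was the lowest of the 4 immature clusters, and none of the markers was among its 10 leading genes, so its stage name is uncertain. It held 39.6% and 33.6% of the immature cells. The mature clusters were N6, led by the interferon-inducible genes Ifit1bl2 and Ddx60, N7, led by Cxcl2 and Stfa2l1, and N8, led by Ptgs2 and Il1b. Most mature control cells lay in N8 (64.6%) and N6 (29.6%), and most mature cells of the MYC library in N7 (86.9%), so a comparison of all mature neutrophils sets different clusters side by side. Ratios within a cluster rest on few cells of 1 library, with 54 cells of the MYC library in N6 and 198 in N8, and 153 control cells in N7. Median UMIs per cell fell along the lineage, from 18192 in N1 to 3137 in N8 of the control.

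Where the genes of this set lie, and the sequence at their starts, is given here before the values, for GRCm38 with GENCODE vM21. All 9 are protein-coding. Mmp8 lies at chr9:7558456-7568485 on the plus strand and Mmp9 at chr2:164940780-164955850 on the plus strand. Mmp25 lies at chr17:23628311-23645277 and Adam8 at chr7:139978932-139992562, both on the minus strand. Retnlg spans chr16:48872621-48874496, Asprv1 chr6:86628164-86629710, Wfdc17 chr11:83703991-83706268 and Dhrs9 chr2:69380445-69404533, all on the plus strand. Prok2 lies at chr6:99711299-99726392 on the minus strand. Adam8 overlaps Gm16201 and Prok2 overlaps Gm26748 on the opposite strand, and Mmp25 overlaps 2 pseudogenes. The microRNA gene Mir7062 overlaps Adam8 on the same strand. Whether the counting used strand is not given in the sources used here. Without strand, reads of a gene and of its antisense partner cannot be told apart.

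Promoter windows from 250 bases before to 50 bases after the annotated start were in the RefSeq table (GRCm38.p6) for 8 of the 9 genes, all but Mmp9. They were searched on both strands for an E-box (CACGTG), an AP-1 element (TGANTCA), a C/EBP element (TTGCNNAA) and a PU.1 element (GAGGAA). The following 4 are shown because these genes span the responses described below, with Prok2 and Retnlg higher and Mmp8 and Dhrs9 lower in mature neutrophils of the MYC library. Capitals mark the matches, and each sequence runs 5′ to 3′ on the gene's strand.
Prok2 (chr6:99726343-99726642, minus strand): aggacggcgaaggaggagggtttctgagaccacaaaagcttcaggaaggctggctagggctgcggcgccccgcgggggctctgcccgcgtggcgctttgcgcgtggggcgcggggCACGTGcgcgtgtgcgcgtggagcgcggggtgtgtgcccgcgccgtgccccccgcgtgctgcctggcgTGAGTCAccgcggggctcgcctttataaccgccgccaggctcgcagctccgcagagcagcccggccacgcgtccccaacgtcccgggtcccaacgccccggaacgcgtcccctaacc
Retnlg (chr16:48872358-48872657, plus strand): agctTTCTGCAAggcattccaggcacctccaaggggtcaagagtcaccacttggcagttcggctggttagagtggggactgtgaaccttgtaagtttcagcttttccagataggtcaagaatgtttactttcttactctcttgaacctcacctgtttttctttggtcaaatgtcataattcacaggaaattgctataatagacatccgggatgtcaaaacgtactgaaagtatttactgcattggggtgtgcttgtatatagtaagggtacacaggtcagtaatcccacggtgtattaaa
Mmp8 (chr9:7558179-7558478, plus strand): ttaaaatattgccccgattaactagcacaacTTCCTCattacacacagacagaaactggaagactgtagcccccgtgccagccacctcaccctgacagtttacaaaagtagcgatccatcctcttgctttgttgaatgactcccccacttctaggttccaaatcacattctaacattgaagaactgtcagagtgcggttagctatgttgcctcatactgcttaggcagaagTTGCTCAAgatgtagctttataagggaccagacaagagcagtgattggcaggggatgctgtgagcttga
Dhrs9 (chr2:69380212-69380511, plus strand): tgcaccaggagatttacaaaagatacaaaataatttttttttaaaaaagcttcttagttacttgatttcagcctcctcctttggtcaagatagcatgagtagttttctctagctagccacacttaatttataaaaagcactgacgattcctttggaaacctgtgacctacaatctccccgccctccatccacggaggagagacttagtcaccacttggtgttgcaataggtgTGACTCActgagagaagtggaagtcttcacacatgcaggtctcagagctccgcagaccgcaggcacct

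The Prok2 window held the only E-box among the 8 genes, at position -135 from the start, and an AP-1 element at -67. Of 32851 windows in the table, 7.15% held the E-box and 7.81% the AP-1 element. Dhrs9 had an AP-1 element at -18. The C/EBP element, found in 10.8% of all windows, lay in those of Mmp8 (-19), Adam8 (-219) and Retnlg (-246). The PU.1 element lay in 4 of the 8 windows, those of Mmp8, Mmp25, Asprv1 and Wfdc17, and in 28.3% of all windows. The E-box is known as the sequence that MYC binds with its partner MAX, and a match describes letters in a window, not binding.

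Of the 9 genes, 8 were transcripts of the neutrophil lineage. The lineage held between 89.7% (Adam8) and 93.9% (Prok2) of their UMIs in the control and between 90.7% (Adam8) and 94.2% (Retnlg) in the MYC library, against 45.4% and 46.3% of the cells. Wfdc17, a small secreted protein with a whey acidic protein domain that is known from activated macrophages and microglia, was not confined to the neutrophil lineage. Only 33.7% of its control UMIs and 35.6% of its MYC library UMIs came from the neutrophil lineage, while monocytes held 45.7% and 36.3% and macrophages 4.13% and 19.0%.

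The lowest levels in these data have to be read against free RNA, which gives UMIs of abundant transcripts to cells that do not make them. In 7 classes that should lack these genes (mature B, plasma, T or NK, erythroid progenitor, erythroblast, plasmacytoid dendritic and megakaryocyte cells) Mmp8 stood at 46.9 to 214 CPM in the control and 20.3 to 259 CPM in the MYC library. Mmp8 in N1 to N3 lay at 55.2 to 85.0 CPM and 45.5 to 74.3 CPM, inside those ranges. Mmp9, Adam8 and Dhrs9 likewise had intervals wholly above the highest of the 7 classes in N4 to N8 only. Retnlg also stood above them in N4 to N8 only, in N4 of the MYC library narrowly (1812 CPM against 1739.9 CPM in erythroblasts), Prok2 in N5 to N8 and Wfdc17 in N6 to N8. Mmp25 stood above them from N2 on in both libraries, and Asprv1 from N5 on in the control and from N2 on in the MYC library. Levels in the remaining clusters are not read as expression.

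Mmp25 was the earliest of the 9 to stand above free RNA in both libraries, and the other metalloproteases followed in N4. Mmp25, which encodes the membrane-anchored protease leukolysin, went from 16.0 CPM in N1 to 82.1 CPM in N2 of the control (log2 ratio 2.36, 2.09 to 2.63), and from 9.37 to 70.8 CPM in the MYC library (log2 ratio 2.92, 2.55 to 3.31). In those same clusters Mmp8, the neutrophil collagenase, had not left the background. Mmp8 went from 55.2 CPM in N3 to 1319.9 CPM in N4 of the control (log2 ratio 4.58, 4.41 to 4.75), and from 74.3 to 996 CPM in the MYC library, 3.74 (3.59 to 3.91). Mmp9, which encodes gelatinase B, went from 119 to 1142 CPM in the control, 3.26 (3.14 to 3.38), and from 136 to 1070.3 CPM in the MYC library, 2.98 (2.86 to 3.10). Adam8, a membrane-bound disintegrin and metalloprotease of leukocytes, was higher at the same step, with log2 ratios of 3.03 (2.70 to 3.37) and 2.59 (2.29 to 2.90).

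The 3 matrix metalloproteinases peaked before the end of the lineage. Mmp8 in the control reached 5772 CPM in N5 and 5502 CPM in N6 and then stood at 3626 CPM in N7 and 2064 CPM in N8. In the MYC library its highest level was 4391 CPM in N6, and N8 stood at 1503 CPM. The log2 ratio of N8 over N6 was -1.41 (-1.45 to -1.38) in the control and -1.55 (-1.66 to -1.43) with MYC. For Mmp25 the same ratio was -1.46 (-1.58 to -1.34) and -1.22 (-1.58 to -0.84), for Mmp9 it was -0.58 and -0.74, and for Adam8 it was -0.18 (-0.27 to -0.09) and -0.48 (-0.84 to -0.11). For Mmp25 the levels in N5 and N6 of the control, 444 and 440.45 CPM, could not be ordered within counting error.

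Retnlg made its largest step one cluster later, between N4 and N5, as did Dhrs9 in the control, and Prok2 first stood above free RNA in N5. Retnlg encodes resistin-like gamma, a secreted cysteine-rich protein of the resistin family. It stood at 852 CPM in N4 and 11976 CPM in N5 of the control (log2 ratio 3.81, 3.78 to 3.85), and at 1812 and 17037 CPM in the MYC library, 3.23 (3.21 to 3.26). It reached 28432 CPM in N6 of the control and 36251 CPM in N7 of the MYC library, the highest clusters of each, and stood at 15814 and 20615 CPM in N8. Dhrs9, a short-chain dehydrogenase that oxidises retinol and steroids, went from 20.3 to 123 CPM between N4 and N5 of the control (2.60, 2.37 to 2.85) and from 23.4 to 103 CPM in the MYC library (2.14, 1.91 to 2.38). In the MYC library its step from N3 to N4 was of like size (2.31, 1.65 to 3.04), from a level within free RNA. From N6 to N7 the ratio had intervals that included 0 in both libraries, and N8 over N6 was -0.25 (-0.38 to -0.12) in the control and -0.07 (-0.57 to 0.46) with MYC. Prok2 encodes prokineticin 2, also called Bv8, a secreted chemokine-like peptide that mobilises myeloid cells and promotes angiogenesis. From 3.02 and 9.97 CPM in N4, within free RNA, it reached N5, and the size of that step is not read. In the control it stood at 24.9 CPM in N5, 53.3 CPM in N6, 58.6 CPM in N7 and 17.0 CPM in N8, with N8 below N7 (-1.79, -2.36 to -1.18). In the MYC library it stood at 63.2, 186, 164 and 118 CPM, with N8 below N7 by less (-0.48, -0.80 to -0.18), a difference between the libraries that was not tested.

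Asprv1 and Wfdc17 were highest late. Asprv1 is a retroviral-like aspartic protease best known from the epidermis. Its control level was 35.2 CPM in N5, 92.1 CPM in N6, 122 CPM in N7 and 163 CPM in N8. In the MYC library it was 124, 194, 296 and 268 CPM, with N7 and N8 not separable by counting error (-0.14, -0.35 to 0.06). Wfdc17 was the only one of the 9 with its highest level in N8 in both libraries. It stood at 38.8 CPM in N6, 188 CPM in N7 and 436 CPM in N8 of the control and at 233, 963 and 2094 CPM in the MYC library. N8 over N7 was a log2 ratio of 1.22 (0.94 to 1.50) and 1.12 (1.04 to 1.20). Of the 9, only Wfdc17 in both libraries and Asprv1 in the control were higher in N8 than in N7.

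**Figure D1:**
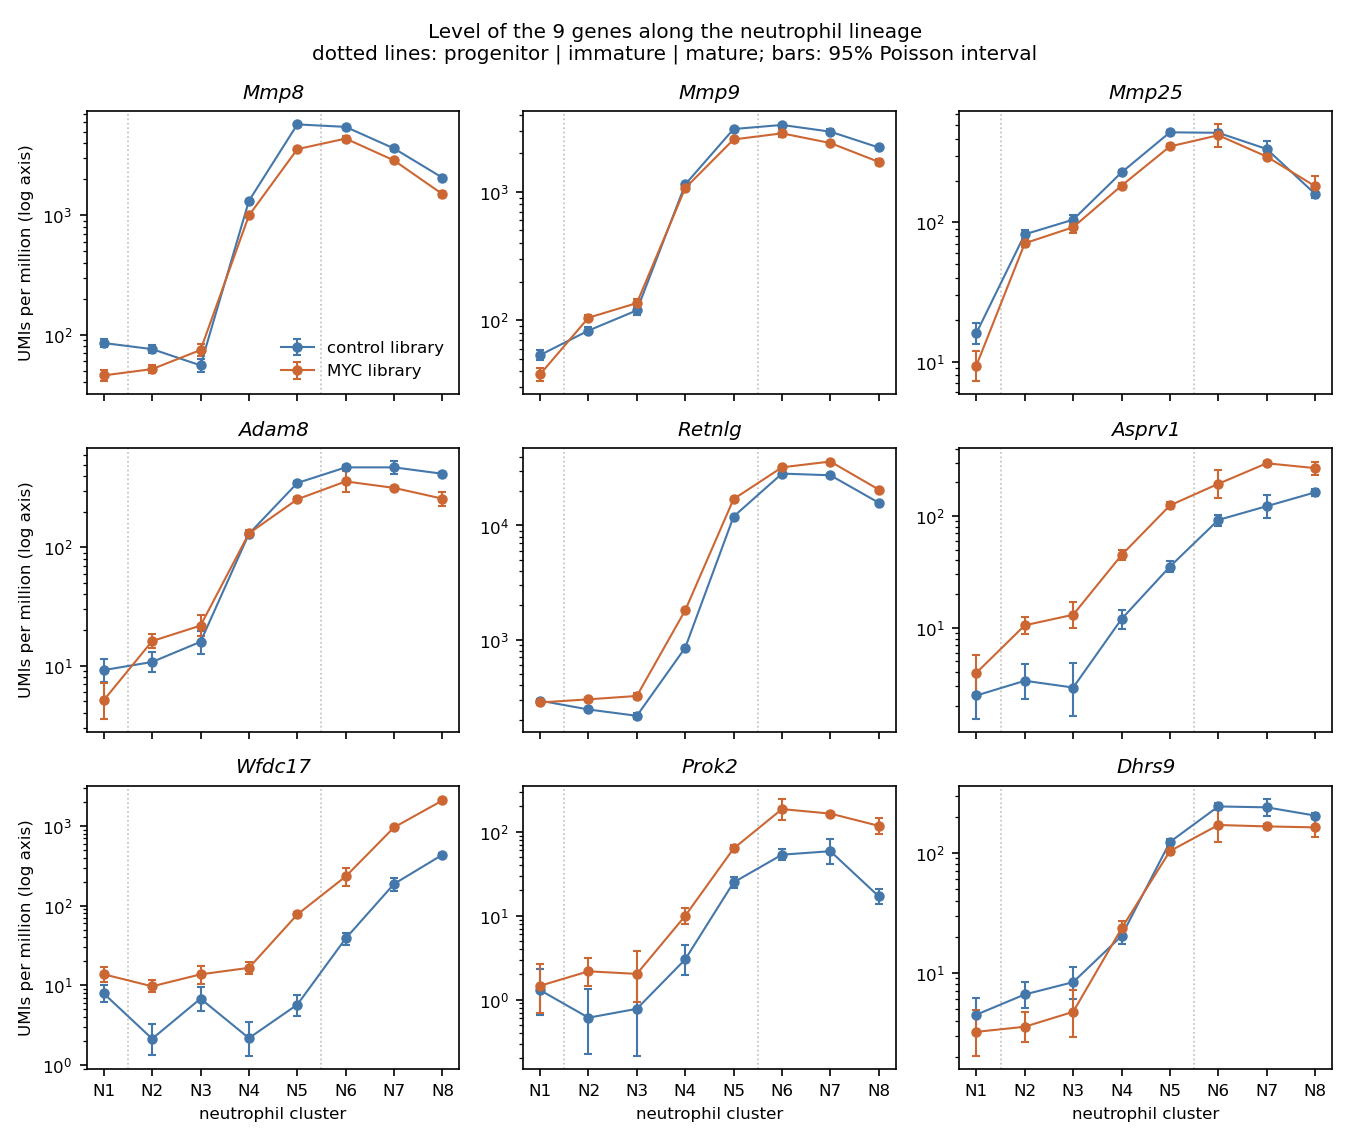
Each panel plots 1 gene, with the level in CPM on a log axis against the neutrophil clusters N1 to N8, in blue for the control and orange for the MYC library, with 95% Poisson intervals. Mmp8 turns down after N5 or N6, while Wfdc17 climbs to 436 and 2094 CPM in N8, and the orange line lies above the blue one for Retnlg, Asprv1, Wfdc17 and Prok2 and below it for Mmp8 and Mmp9 from N4 on.

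Summed by stage, all 9 genes were higher in mature than in immature neutrophils of both libraries. A difference of at least 2-fold was met by 7 of the 9 in the control, all but Mmp8 and Mmp25, where 14.8% of all 6176 genes tested were that much higher, and by 8 of the 9 in the MYC library, all but Mmp25, where 12.1% of 5871 genes did. The genes had been chosen as late neutrophil transcripts, so this count describes them, and in the control Prok2 and Wfdc17 passed the filter, a mean of 10 CPM over the sums compared, only through the mature cells. The median log2 ratio of the 9 was 2.13 in the control and 2.46 with MYC, against -0.10 for all genes tested in each. The medians ran from 1.14 to 4.22 and from 1.84 to 3.78 over the processing alternatives. The upper ends came from leaving N5 out of the immature class, and Mmp25 in the control turned to -0.25 with cells under 5% mitochondrial UMIs. Mmp8 in the control fell to 0.017 as a mean over cells. For these genes the stage sums depend on the mix of clusters, since N8 lay below N5 in the control, by -1.48 for Mmp8 and -1.47 for Mmp25.

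The MYC library was then compared with the control within each stage. In mature neutrophils Prok2, Wfdc17 and Asprv1 were higher by more than 2-fold, and Retnlg was higher by 1.66-fold. Adam8, Dhrs9, Mmp8 and Mmp9 were lower. At least 2-fold higher were 3 of the 9 genes and 0 were 2-fold lower, where 2.29% of 5556 genes tested were higher and 5.76% lower by that much. The 9 genes were chosen with earlier results of these data known, so this count and those of the other stages only describe them. In immature neutrophils, where 1.53% of 6206 genes were higher and 1.24% lower by that much, Asprv1 was the only one of the 9 past 2-fold with 10 CPM in both libraries. Prok2 and Wfdc17 were past it too, but at 7.42 and 3.82 CPM in the control they passed the filter only through the MYC library, and nothing is read from their count. Wfdc17 was also at the level of free RNA there, and Prok2 turned to -0.16 when each library was clustered on its own. In granulocyte progenitors none of the 9 stood above free RNA, so no difference is read. The 5 with a mean of 10 CPM were within 2-fold, where 0.803% of 6974 genes were higher and 4.4% lower by that much, but over the alternatives Wfdc17 (0.80) reached 2.56 at Leiden resolution 2 and Mmp8 (-0.90) reached -1.14 as a mean over cells, both past 2-fold. The median log2 ratio of the 9 was 0.10 in mature and -0.38 in immature neutrophils, against -0.24 and -0.23 for all genes tested. The first median is the ratio of Mmp25 and changed sign in 5 of 16 alternatives, so it gives no direction for the set.

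Over all mature neutrophils Prok2 had the largest ratio of the 9, though within N6 and N7 that of Wfdc17 was larger. Prok2 stood at 32.5 CPM (309 UMIs) in the control and 161 CPM (1497 UMIs) in the MYC library, a ratio of 4.96 (4.38 to 5.62) or 2.31 on the log2 scale (2.13 to 2.49). Within the clusters that stood above free RNA the log2 ratio was 1.34 (1.10 to 1.59) in N5, 1.80 (1.31 to 2.27) in N6, 1.49 in N7 and 2.79 (2.36 to 3.22) in N8. Prok2 was higher in 4 of 4 such clusters, and none of their intervals included 0. The antisense gene Gm26748 had 3 UMIs in mature control neutrophils and 34 in those of the MYC library, and so was also higher there, with far fewer UMIs than Prok2.

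Wfdc17 in mature neutrophils stood at 279 CPM in control cells and 1039 CPM in MYC library cells (log2 ratio 1.90, 1.83 to 1.96). The ratio was larger within each mature cluster, at 2.58 (2.12 to 3.04) in N6, 2.36 (2.09 to 2.64) in N7 and 2.26 (2.17 to 2.36) in N8. N8, where Wfdc17 was highest, held 64.6% of mature control cells and 10.3% of those of the MYC library. In immature neutrophils it stood at 3.82 and 26.65 CPM (log2 ratio 2.80, 2.52 to 3.09). That level lay within the background of the MYC library, where the 7 classes that should lack the gene ranged from 24.1 to 89.9 CPM, against 0 to 17.1 CPM in the control. Wfdc17 was thus higher in the background of the MYC library too, and no difference is read in the immature stage.

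Asprv1 in mature neutrophils stood at 135 CPM in control cells and 291 CPM in MYC library cells (log2 ratio 1.11, 1.01 to 1.20). In immature neutrophils it stood at 13.6 and 43.6 CPM, a ratio of 1.68 (1.52 to 1.84). Within clusters the ratio was 1.82 (1.62 to 2.02) in N5, 1.07 (0.61 to 1.51) in N6, 1.28 (0.94 to 1.63) in N7 and 0.72 (0.50 to 0.94) in N8. Asprv1 was higher in 4 of 4 clusters above the background of both libraries. Asprv1 UMIs were concentrated in few cells, and the richest 1% of mature cells held 16.8% of them in the control and 11.5% with MYC.

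Retnlg in mature neutrophils stood at 21028 CPM in the control and at 34809.8 CPM with MYC (log2 ratio 0.73, 0.72 to 0.74). Within N6, N7 and N8 the ratio was smaller, at 0.18 (0.15 to 0.21), 0.40 (0.38 to 0.42) and 0.38 (0.36 to 0.41). N8, the lowest of the 3 for Retnlg, held 64.6% of the control cells, and N7 held 86.9% of the others. In N5 Retnlg was higher by 0.51 (0.50 to 0.52). In N4 the ratio was 1.09 (1.05 to 1.13). Of the 7 classes that should lack Retnlg, 5 were higher with MYC, among them erythroblasts, from 439 to 1739.9 CPM (1.99, 1.87 to 2.10), and mature B cells (2.21, 2.07 to 2.35). The other 2 were lower, plasmacytoid dendritic cells from 314 to 150 CPM (-1.07, -1.39 to -0.76) and erythroid progenitors from 273 to 209 CPM (-0.38, -0.47 to -0.30). Since N4 with MYC lay just above the highest of these classes, no difference is read in N4. A median mature cell held 64 Retnlg UMIs in the control and 162 with MYC, at median depths of 3478 and 4787 UMIs. The immature class as a whole, at 3365 and 4309 CPM, gave 0.36 (0.35 to 0.37), but this turned to -1.08 when each library was clustered on its own and to -0.32 at Leiden resolution 2, so no direction is given for it.

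Among the metalloproteases Mmp8, Mmp9 and Adam8 were lower in the MYC library in both immature and mature neutrophils, except that Mmp9 in mature ones turned above 0 with TMM or median-of-ratios scaling, and Mmp25 was lower in immature ones. In immature neutrophils Mmp8 stood at 1842 CPM in control cells and 1044.5 CPM in MYC library cells (log2 ratio -0.82, -0.84 to -0.80), against a median of -0.23 over all genes. The class was mixed differently in each library. N2, where Mmp8 was within free RNA, held 17.7% of immature control cells and 27.0% of those of the MYC library, and N5, its highest immature cluster, held 39.6% and 33.6%. Within the 2 immature clusters above free RNA the ratio was smaller, at -0.41 (-0.45 to -0.36) in N4 and -0.69 (-0.71 to -0.67) in N5, and that of the class ran from -1.81 to -0.45 over the alternatives. In mature neutrophils it stood at 3383 and 2803 CPM, -0.27 (-0.30 to -0.25), close to the median of all genes of -0.24. Mmp8 was lower in all 5 clusters above background, N4 to N8, with a ratio of -0.33 in N6 and N7. Mmp9 was lower in the same 5 clusters, with ratios from -0.37 in N8 to -0.09 in N4. In the immature class it stood at 1129 and 869 CPM, -0.38 (-0.40 to -0.35), and ran from -1.04 to -0.06 over the alternatives. For mature neutrophils as a whole Mmp9 stood at 2652 and 2353 CPM, -0.17 (-0.20 to -0.15), and this turned to 0.08 with TMM scaling and to 0.035 with median-of-ratios scaling. These scalings moved the median of all genes in mature neutrophils by 0.25 and 0.21. Mmp8 kept its sign under both, within -0.56 to -0.01 over all 16 alternatives.

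Adam8 in mature neutrophils was below the median of all genes. It stood at 442 CPM in control cells and 314 CPM in MYC library cells (log2 ratio -0.49, -0.56 to -0.42), and stayed below 0 in all 16 alternatives, from -0.57 to -0.24. Its ratio was -0.46 (-0.54 to -0.37) in N5, -0.39 (-0.71 to -0.09) in N6, -0.58 (-0.75 to -0.39) in N7 and -0.70 (-0.91 to -0.49) in N8, while in N4 it was 0.01 (-0.11 to 0.14). In the immature class Adam8 stood at 129 and 95.8 CPM, -0.43 (-0.50 to -0.36), and at -0.08 with N5 left out. The antisense gene Gm16201 had 26 UMIs in mature neutrophils of each library. Dhrs9 stood at 221 and 166 CPM in mature neutrophils, -0.41 (-0.51 to -0.32), and was lower in N5 to N8 with ratios from -0.53 to -0.25, and 0.21 (-0.10 to 0.52) in N4. Mmp25 was lower in the immature class, at 216 and 161 CPM, -0.42 (-0.48 to -0.37), and below 0 there in all 16 alternatives (-0.73 to -0.23). It was also lower in N2 (-0.21, -0.35 to -0.08), N4 (-0.32, -0.42 to -0.22) and N5 (-0.34, -0.41 to -0.26). The median of all genes in the immature class was -0.23, near the ratio of Mmp25 in N2 and that of Dhrs9 in N5 (-0.25). Mature neutrophils held 271 and 291 CPM of Mmp25, 0.10 (0.02 to 0.18), although N6 and N7 gave -0.06 and -0.18 and N8 gave 0.18, each with an interval that included 0.

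**Figure D2:**
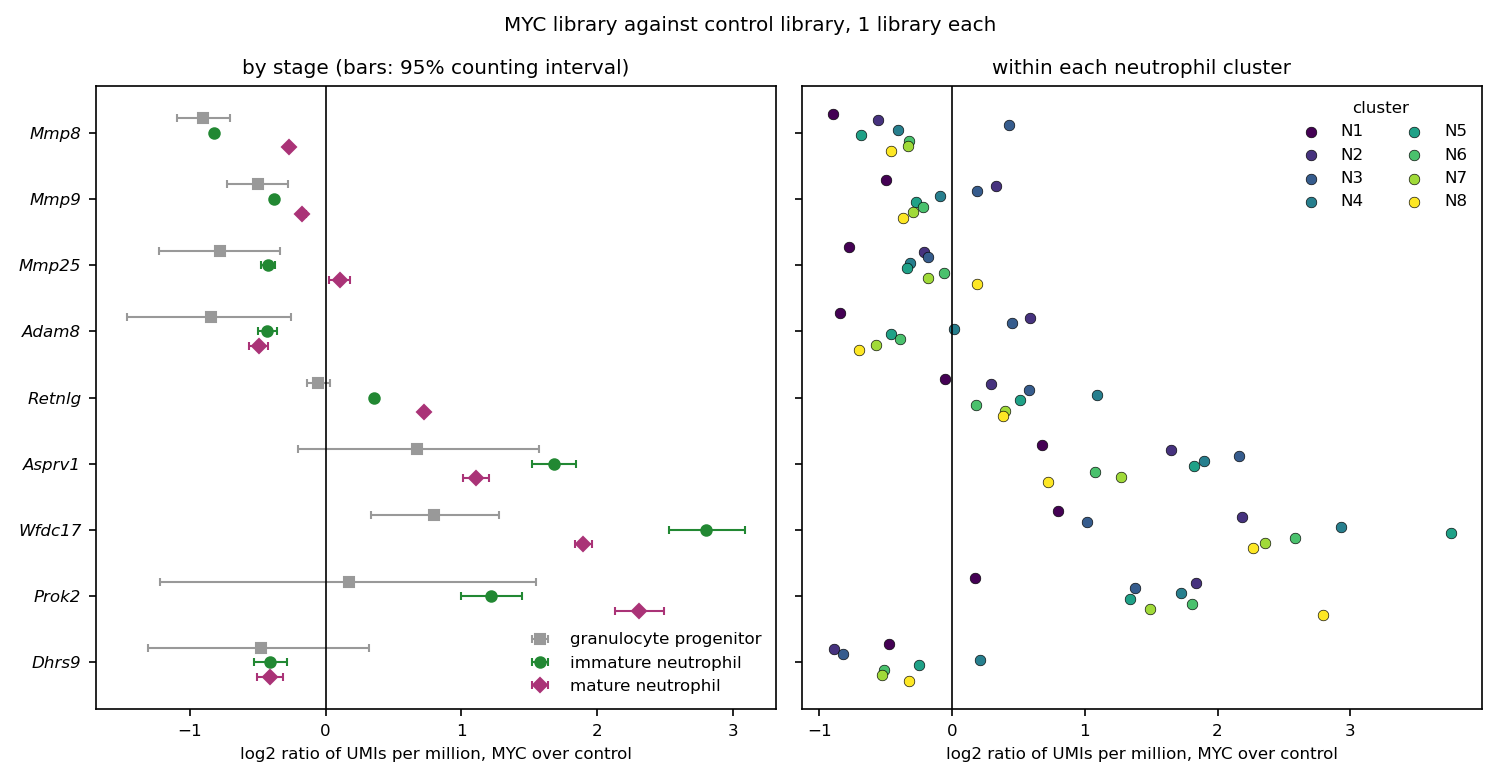
The left panel plots the log2 ratio of MYC over control library for each gene by stage, with 95% counting intervals, and the right panel the same ratio within each cluster N1 to N8, without intervals. Prok2 (2.31), Wfdc17 (1.90) and Asprv1 (1.11) in mature neutrophils lie to the right of the line at 0, and Adam8 (-0.49), Dhrs9 (-0.41), Mmp8 (-0.27) and Mmp9 (-0.17) to its left, and the points of N1 to N3 are mostly at background levels.

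The share of cells with a UMI was compared after thinning each cell to 1000 UMIs, since mature cells of the MYC library were deeper. At that depth 2.84% of mature control cells (2.23% to 3.56%) and 13.2% of mature cells of the MYC library (11.7% to 14.8%) held a Prok2 UMI, and without thinning the shares were 9.21% and 38.1%. Wfdc17 was found in 17.5% (16.1% to 19.0%) and 42.6% (40.3% to 44.8%) of thinned mature cells, and Asprv1 in 9.96% (8.83% to 11.2%) and 19.7% (17.9% to 21.5%). Erythroid progenitors, which should lack these genes, gave thinned shares of 0.093% and 0% (0% to 1.19%) for Prok2, 0.28% and 2.93% for Wfdc17 and 0.56% and 1.30% for Asprv1. They gave 11.2% and 11.7% for Retnlg, 0.83% and 0.65% for Adam8, 0.093% and 0% for Dhrs9 and 6.12% and 3.91% for Mmp8, at unthinned median depths of 13573 and 17125 UMIs. Other classes that should lack these genes held more free RNA in the MYC library. Wfdc17 stood at 25.3 CPM in erythroid progenitors and 89.9 CPM in erythroblasts there, and Retnlg at 209 and 1739.9 CPM. Retnlg was present in 94.4% and 99.3% of mature cells. Adam8 was lower in share as well as in level, going from 33.5% (31.7% to 35.4%) to 26.7% (24.7% to 28.8%), and Dhrs9 from 18.7% (17.2% to 20.2%) to 15.1% (13.5% to 16.8%). Mmp8 moved the other way, being found in 74.1% of mature control cells and 81.1% of those of the MYC library although its level was lower there, and no order is read from that share. The thinning left out 69 and 21 mature cells with under 1000 UMIs.

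**Figure D3:**
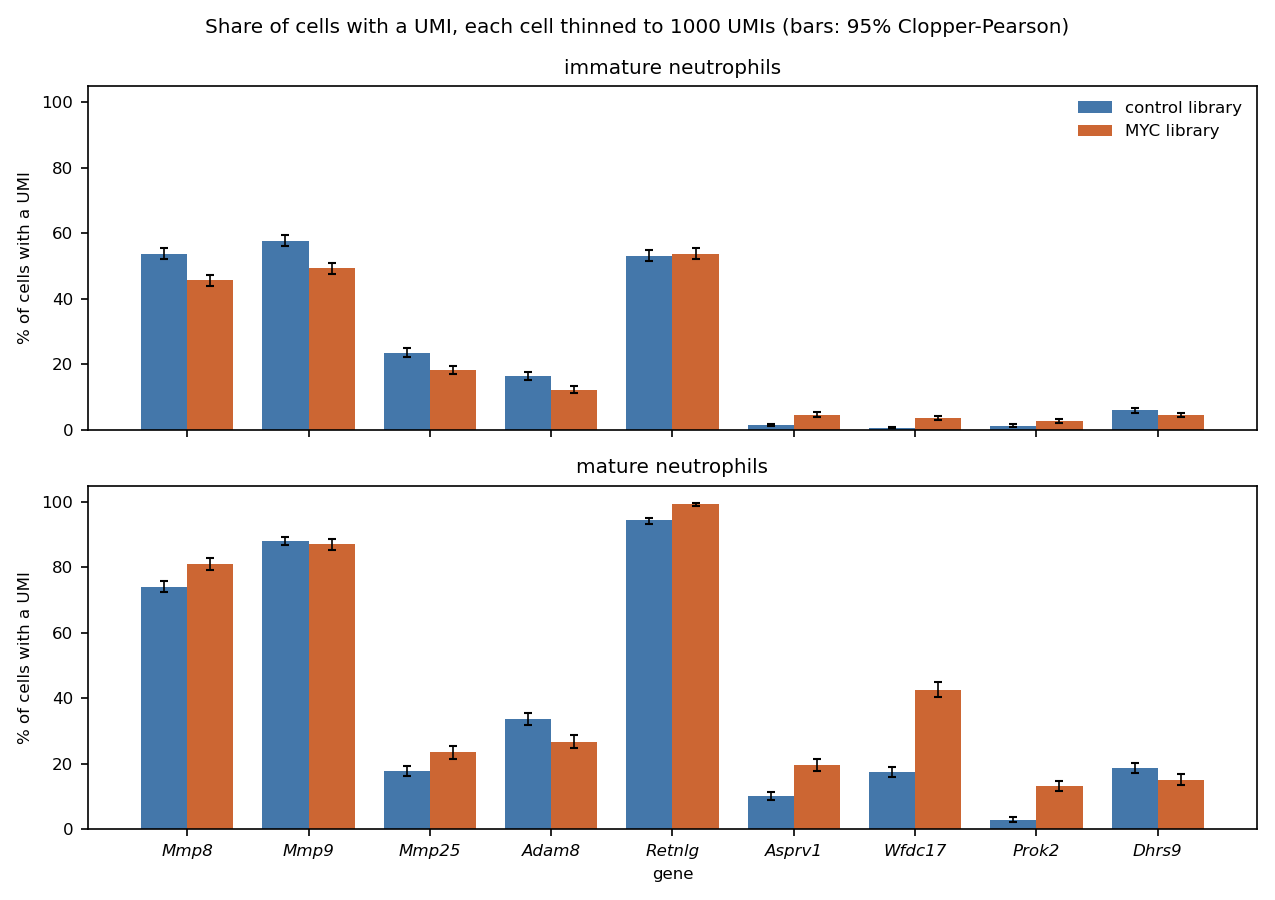
Bars give the percentage of immature (top) and mature (bottom) neutrophils with at least 1 UMI of each gene after every cell was thinned to 1000 UMIs, in blue for the control and orange for the MYC library, with 95% Clopper-Pearson intervals. In mature neutrophils Prok2 (2.84% and 13.2%), Asprv1 (9.96% and 19.7%) and Wfdc17 (17.5% and 42.6%) show the widest relative gaps between the libraries.

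Markers of other cells were set beside these results. In mature neutrophils the 8 monocyte markers summed to 195 CPM in control cells and 206 CPM in MYC library cells, against 6564 and 5167 CPM in monocytes, and the 8 macrophage markers to 36.8 and 43.9 CPM, against 9946 and 5419 CPM in macrophages, with 0 of either list at 0 UMIs. The 9 erythroblast markers summed to 3134 and 1610 CPM. Markers of the neutrophil stages moved too. In mature neutrophils the 9 immature markers summed to 13138 CPM in control cells and 20348 CPM in MYC library cells, and the 10 mature markers to 10039.7 and 7783 CPM. Within N8 the immature markers stood at 8446 and 16883 CPM and the mature markers at 11841 and 9069 CPM. Erythroblasts, which should lack the immature markers, held 8094 CPM of them among control cells and 23298 CPM among MYC library cells. For mature B cells these sums were 1812 and 2890 CPM. Mature neutrophils and N8 of the MYC library lay below its erythroblasts for the immature markers, so no difference in these is read. The mature markers were lower in mature cells of the MYC library, also within N8. The part of any of these markers in the results was not tested.

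Outside the neutrophils each gene was set against S100a8, an abundant neutrophil transcript, because free RNA of 1 source keeps its transcripts in 1 ratio. The 7 classes that should lack these genes show how far that ratio wandered. Relative to the neutrophil lineage, Retnlg per S100a8 UMI lay there between 0.704 and 1.70 times in the control and between 0.203 and 2.20 times in the MYC library, both highest in mature B cells. In monocytes Mmp9, Mmp25, Retnlg, Dhrs9 and Prok2 stood at 0.44 to 1.27 times and Adam8 at 1.28 and 1.39 times. These lay within that spread except Prok2 in the control, whose 0.44 times rested on 3 UMIs and lay below it. Mmp8 in monocytes stood at 1.93 times (1.85 to 2.01) in the control and 2.44 times (2.35 to 2.54) in the MYC library. The same ratio for Mmp8 in the 7 classes reached 1.32 times in erythroid progenitors of the control and 1.81 times (1.45 to 2.22) in mature B cells of the MYC library. The Mmp8 values in monocytes thus lay above those of Mmp8 in the 7 classes, but near those of Retnlg in mature B cells. Mature neutrophils also held more Mmp8 per S100a8 UMI than the lineage. They stood at 3383 against 1837 CPM for Mmp8 and 84297 against 101190 CPM for S100a8 in the control. In the MYC library these were 2803 against 1237 CPM and 96718.5 against 99699.8 CPM. No expression of Mmp8 is read in monocytes. Adam8 stood at 4.64 times (3.81 to 5.61) and 6.05 times (4.68 to 7.70) in the class of basophils or mast cells, with 65.1 and 45.6 CPM. In conventional dendritic cells it stood at 3.28 times (2.58 to 4.10) and 3.30 times (2.49 to 4.28). Its highest values in the 7 classes were 1.76 times (0.91 to 3.07, megakaryocytes) and 2.60 times (1.38 to 4.44, mature B cells), whose intervals overlap those of the dendritic cells but not those of the basophils or mast cells. Mature neutrophils held more Adam8 per S100a8 UMI than the lineage too. They stood at 442 against 169 CPM of Adam8 in the control and at 314 against 124 CPM with MYC. No expression of Adam8 is read in the dendritic cells. Asprv1 stood at 3.44 times (17 UMIs, interval up to 5.53) and 1.86 times (1.01 to 3.12, 14 UMIs) in basophils or mast cells. In conventional dendritic cells it stood at 1.84 times (0.84 to 3.50, 9 UMIs) and 3.40 times (2.42 to 4.63, 40 UMIs), and in monocytes at 1.32 and 0.78 times. Its few UMIs in the 7 classes gave up to 2.81 times (0.76 to 7.20) and 1.76 times (1.18 to 2.54), and no expression of Asprv1 is read in these cells. The conventional dendritic cluster was led by Ace and Adgre4 besides its class II genes, so its name is uncertain.

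Wfdc17 was the exception in these cells, at 111 and 57.5 times its neutrophil ratio in monocytes, 349 and 94.9 times in macrophages and 98.3 and 34.5 times in conventional dendritic cells. Its level in monocytes was 303 CPM in control cells and 602 CPM in MYC library cells (log2 ratio 0.99, 0.94 to 1.05). The 2 monocyte clusters differed, one led by Ms4a8a and Vcan going from 536 to 978 CPM (0.87, 0.81 to 0.93) and the other, led by Itga1, Nrg1 and Klf4, from 103 to 370.5 CPM (1.84, 1.73 to 1.96). Macrophages stood at 918 and 1349 CPM. They were made up of different clusters, since 53 of 74 control cells lay in a cluster led by Cd5l and Fcna and 656 of 683 cells of the MYC library in one led by C1qb and C1qc. Within the first Wfdc17 went from 926 to 3668 CPM (1.99, 1.76 to 2.22, 27 cells in the MYC library) and within the second from 897 to 1279 CPM (0.51, 0.23 to 0.81, 21 control cells). Wfdc17 was higher in the MYC library in each of these clusters and in each mature neutrophil cluster.

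**Figure D4:**
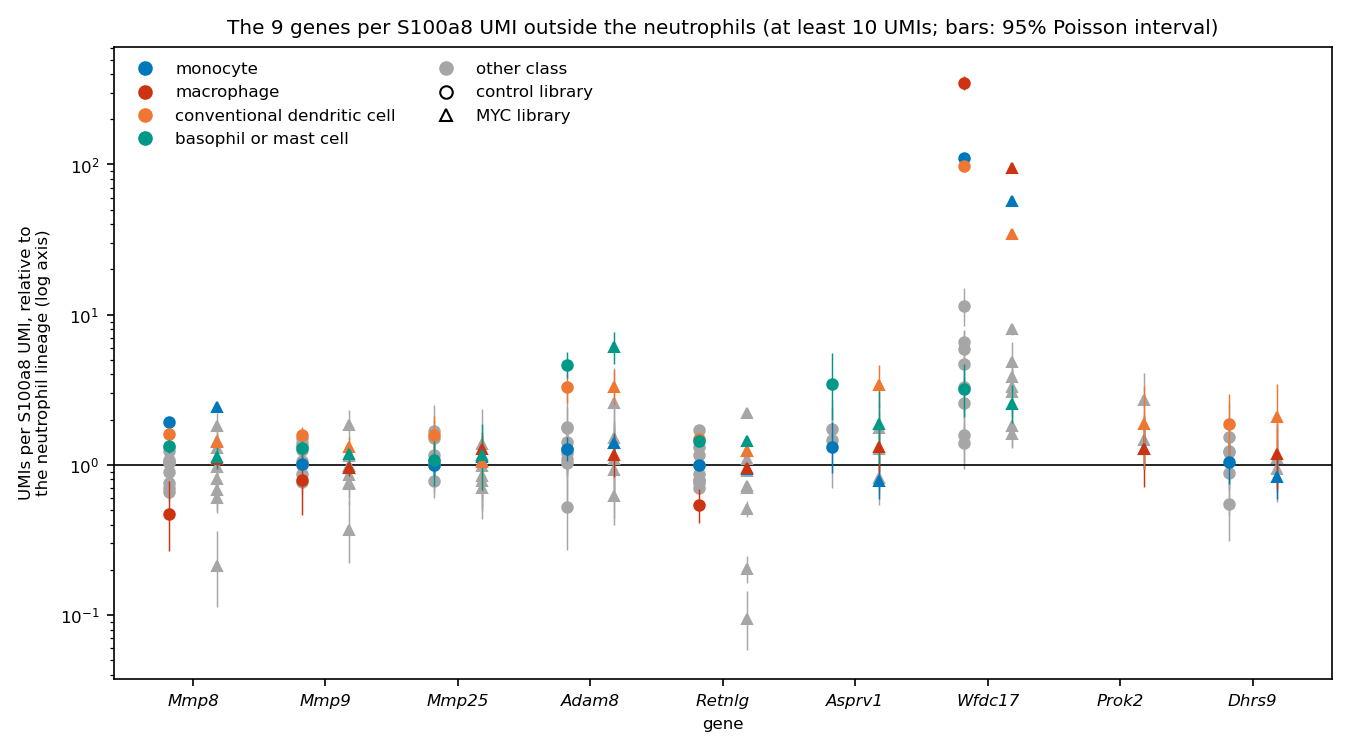
Each point is a cell class outside the neutrophils, plotted as UMIs of the gene per S100a8 UMI relative to the neutrophil lineage on a log axis, as circles for the control and triangles for the MYC library, with 95% Poisson intervals and only where the class held at least 10 UMIs. Many points lie near 1, Retnlg in mature B cells lies at 1.70 and 2.20, Asprv1 lies at up to 3.44, Adam8 lies at 4.64 and 6.05 in basophils or mast cells, and Wfdc17 lies between 34.5 and 349 in monocytes, macrophages and conventional dendritic cells.

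Genes with the most similar pattern were sought over 30 sums, 15 classes in each of 2 libraries, by the Pearson correlation of log2(CPM + 1). The sums share libraries and free RNA, so the values are descriptions. They include the mature neutrophil sums of both libraries, so a shared direction there is partly built into the choice of neighbours. Cxcr2 and Ly6g are also among the markers that named the neutrophil clusters. Slfn4 and Ly6g were nearest to Mmp8 (0.96 and 0.95), Mmp9 (0.98 and 0.97) and Mmp25 (0.96 and 0.96). Adam8 was nearest to the chemokine receptor gene Cxcr2 (0.94) and Dhrs9 to the interleukin-36 gamma gene Il1f9 (0.97). Retnlg and Prok2 had 2 of their 3 nearest genes in common, Gpr27 (0.95 and 0.91) and Mcam (0.93 and 0.89). In mature neutrophils Gpr27 stood at 58.2 CPM in control cells and 108 CPM in MYC library cells and Mcam at 9.47 and 25.5 CPM, higher with MYC as were Retnlg and Prok2. Slfn4 stood at 589 and 397 CPM, Cxcr2 at 1989 and 1187 CPM and Il1f9 at 349 and 205 CPM, lower with MYC as were Mmp8, Mmp9, Adam8 and Dhrs9. Other neighbours went the other way from their gene. Slfn4 was also the second nearest to Retnlg (0.94), which was higher, and Ly6g stood at 377 and 520.4 CPM, higher with MYC, while Mmp8 and Mmp9 were lower. Asprv1 was nearest to the cystine transporter gene Slc7a11 (0.87), which stood at 281 and 283 CPM. Wfdc17 was nearest to Sirpb1c and Clec4a3 (0.87 each), which stood at 60.0 and 27.4 CPM and at 18.0 and 10.4 CPM, lower with MYC while Wfdc17 was higher. Its correlations with the other 8 genes, 0.13 to 0.32, were lower than any among those 8 (0.76 to 0.97).

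The relatives of these genes were read from lists. A list gene is called higher or lower where its counting interval lies on that side of 0. Of all 8385 genes with at least 50 UMIs in mature neutrophils, 15.7% were higher and 42.1% lower by that rule, with a median log2 ratio of -0.23, so lower calls were common. Of 18 other matrix metalloproteinases 1, Mmp27, had the 50 UMIs needed in mature neutrophils, at 3.05 and 2.91 CPM. Of 8 other ADAM proteases 5 were measured there, of which 4 were lower, with a median of -0.23 that is the same as for all genes, such as Adam10 from 62.0 to 42.5 CPM (-0.54, -0.73 to -0.36), and Adam9 was higher (0.82, 0.10 to 1.58). The metalloproteinase inhibitor Timp2 stood at 264 and 266 CPM (0.01, -0.07 to 0.09), and Reck, a membrane-anchored inhibitor, at 9.05 and 14.96 CPM (0.73, 0.33 to 1.13). None of the 3 other genes of the prokineticin system, Prok1 and the receptors Prokr1 and Prokr2, reached 50 UMIs in any neutrophil stage.

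In the resistin family Retn, the gene for resistin itself, differed in direction from Retnlg in mature neutrophils. At 19.4 CPM (184 UMIs) for the control against 4.30 CPM (40 UMIs), its log2 ratio was -2.17 (-2.70 to -1.67). Among whey acidic protein genes Slpi, an inhibitor of leukocyte proteases, went from 1456 to 1834 CPM in mature neutrophils (0.33, 0.30 to 0.37) and from 335 to 533 CPM in immature ones (0.67, 0.64 to 0.71). Wfdc21 was higher in mature (0.45, 0.43 to 0.48) and lower in immature neutrophils (-0.22, -0.23 to -0.21). Of 16 retinoid enzymes and receptors 8 were measured in mature neutrophils, 4 were lower and 0 higher, with a median of -0.34. Beside the 42.1% of all genes that were lower, this is no result about the list. Rdh12, another retinol dehydrogenase, went from 218 to 171 CPM (-0.35, -0.45 to -0.26).

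Of 15 genes listed as partners in gelatinase granules and secretory vesicles 13 were measured in mature neutrophils, 3 higher and 6 lower, with a median log2 ratio of -0.14 against -0.23 for all genes with 50 UMIs. The higher ones were Cyba, a subunit of the oxidase membrane complex, at 798 and 1382 CPM (0.79, 0.75 to 0.83), Olfm4 (0.67, 0.56 to 0.78) and Hp (0.33, 0.30 to 0.37). Olfm4 and Hp are known as proteins of specific granules rather than of gelatinase granules or vesicles. Cybb, the partner subunit of Cyba, went from 618 to 499 CPM (-0.31, -0.37 to -0.25). Itgam, the integrin subunit stored with Mmp9 in gelatinase granules, went from 806 to 643 CPM (-0.33, -0.37 to -0.28), and the vesicle protein gene Vamp2 from 35.0 to 19.8 CPM (-0.82, -1.09 to -0.56). Of 8 granulocyte transcription factor genes, with a median of -0.14, 2 were higher in mature neutrophils, Cebpb from 657 to 943 CPM (0.52, 0.48 to 0.57) and Spi1, which encodes PU.1 (0.09, 0.03 to 0.14), and 4 were lower, among them Cebpa from 30.8 to 13.6 CPM (-1.18, -1.50 to -0.88).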

How the data were processed

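The 9 genes and all lists were chosen with earlier results of these data known. The authors deposited counts of UMIs, whole numbers for each feature in each barcode. Per the file headers the matrices come from Cell Ranger 6.0.0, and per the submitters' processing notes Cell Ranger 6.0, Seurat and GRCm38 (mm10) were used. The labels name 1 library per genotype and no replicates. Gene positions were matched by identifier to GENCODE vM21.

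Cells were kept with at least 500 UMIs, 200 genes and under 10% mitochondrial UMIs. Doublets were removed with Scrublet in scanpy 1.11.5 (701 control and 251 MYC library cells). Both libraries were clustered together with leidenalg 0.10.2 (resolution 1, 15 neighbours, 30 principal components, 2000 variable genes), leaving out the 9 genes. A cluster was named for its best mean marker score, counting a type only if 3 or more of its markers were seen in 10% of cells, unless another class held more markers among the 10 leading genes. The doublet rate, the clustering run to convergence, the order of the neutrophil clusters, the leading-gene rule that named N5 and the rule that left low-UMI clusters unnamed (2529 control cells and 2704 of the MYC library, medians of 744 and 806 UMIs) were set after the data were seen.

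UMIs were summed per class and library and given per 1000000 UMIs. Levels carry exact Poisson intervals, ratios of sums conditional binomial ones and shares Clopper-Pearson ones, all at 95%. Ratios used sums with at least 50 UMIs for list genes and a mean of at least 10 CPM for counts over all genes. Intervals were tested on simulated data. TMM factors came from edgeR 4.0.16. Nothing was corrected for free RNA. All 9 genes are named whatever their values, with the 3 most correlated genes of each and the members of the lists; the lists' other named genes were picked after their values were seen. The alternatives were other filters, doublets kept, other resolutions, clustering each library alone, classes from markers alone, means over cells, other scalings and other assignments of single clusters.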

Additional observations from a re-analysis of the deposited data

Results flagged for a closer look

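In some neutrophil clusters or stages a gene's intervals lay on opposite sides of 0, and these differences were not themselves tested. Mmp8 had a log2 ratio of MYC over control library of 0.43 in N3 and -0.90 in N1. Mmp9 had 0.33 in N2 and -0.50 in N1, and Adam8 0.59 in N2 and -0.84 in N1. All 6 of these values come from clusters at the level of free RNA. Mmp25 had 0.10 in mature neutrophils and -0.78 in granulocyte progenitors, where it was at that level too.

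Cells and barcodes outside the comparisons gave a signal as well. In the unnamed low-UMI clusters the log2 ratio was 0.077 for Retnlg, 1.81 for Wfdc17 and 1.84 for Prok2. Lower there were Dhrs9 (-1.37), Mmp8 (-0.97), Mmp9 (-0.74), Adam8 (-0.65) and Mmp25 (-0.54). In barcodes left out for few genes or a high mitochondrial share the log2 ratio was 0.69 for Retnlg, 1.88 for Asprv1, 2.57 for Wfdc17 and 1.81 for Prok2. Mmp8 (-0.28) and Mmp9 (-0.21) were lower in them.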

How the results depend on the processing

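Of 688 member ratios recomputed over 16 alternatives (2 of them, on N5, added after the data were seen), 667 kept their sign and 13 were reversed. The others were all Retnlg in granulocyte progenitors, at background levels, whose interval included 0. No setting reversed Prok2, Wfdc17, Asprv1, Retnlg, Mmp8, Adam8 or Dhrs9 in mature neutrophils. The cause of the changes below was not tested.

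The median MYC over control ratio in mature neutrophils (0.10) was -0.084 at Leiden resolution 0.5, -0.15 with a minimum of 1000 UMIs and 500 genes a cell, -0.0079 with doublets kept, -0.013 with classes from markers alone and -0.14 with N5 counted as mature. Mmp25 is the middle gene and had these same 5 reversed values. The median was 0.35 with cells under 5% mitochondrial UMIs, 0.21 as a mean over cells, 0.36 with TMM, 0.31 with median-of-ratios scaling and 0.20 without the 20 most abundant genes. In immature neutrophils (-0.38) it was -0.039 at resolution 0.5, -0.53 at resolution 2, 0.18 with at least 1000 UMIs, -0.50 under 5% mitochondrial UMIs, -0.12 with doublets kept, -0.94 with each library clustered alone, -0.18 with markers alone, -0.33 over cells, -0.18 with TMM, -0.21 with median-of-ratios scaling, -0.41 without Gm42418 and -0.081 with N5 left out or counted as mature.

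Mature over immature, the control median (2.13) was 2.90 at resolution 0.5, 1.35 under 5% mitochondrial UMIs, 2.49 with libraries clustered alone, 2.54 with markers alone, 1.14 over cells, 1.85 with low-UMI clusters added, 4.22 with N5 left out and 3.83 with N5 as mature. The MYC library median (2.46) was 2.75 at resolution 0.5, 2.84 at resolution 2, 2.11 with at least 1000 UMIs, 2.12 under 5% mitochondrial UMIs, 2.31 with doublets kept, 3.20 with libraries clustered alone, 1.84 over cells, 2.15 with low-UMI clusters added, 3.78 with N5 left out and 3.37 with N5 as mature.

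Single genes were reversed as follows. Retnlg in immature neutrophils was -0.32 at resolution 2 and -1.08 with libraries clustered alone, where Prok2 was -0.16. Dhrs9 there was 0.18 with at least 1000 UMIs. Mmp9 in mature neutrophils was 0.081 with TMM and 0.035 with median-of-ratios scaling. Mmp25, mature over immature in the control, was -0.25 under 5% mitochondrial UMIs and -0.25 over cells.

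No paired analysis was possible because each group is 1 library, and leaving out a replicate was likewise impossible.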
